A study of Mus musculus with 18 samples.

Results

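Interval transcripts are the array features that the design names by a stretch of the genome and a strand, with no gene symbol or accession. The array of this study, a one-colour Agilent design for the mouse, carried 16194 probes for 4610 such intervals. Members were chosen by the detection flag of the scanner software alone: 1 or more probes of the interval had to be flagged as well above background by all 6 arrays of a day. By this rule 2668 intervals were members, out of 23369 array features that passed the same rule, and they rested on 5457 passing probes. The label that came with the set calls the intervals intergenic and noncoding. The files give only each interval and its strand, and no gene annotation of their build was used here, so that label was not checked. Each member is called here by the ID of its first passing probe.

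The RNA came from explanted dorsal root ganglia, where neurons of sensation grow beside Schwann cells, satellite glia and connective tissue cells. Ganglia of C57BL/6J embryos at E13.5 were grown on matrigel in a growth medium for 12 days, and RNA was then taken at 3 times. Day 0 cultures were taken just before a myelination medium was added, day 10 cultures at early myelination in it, and day 22 cultures when the protocol describes many mature myelin sheaths. The 3 batches of a day were pools of embryos from separate collections, with 2 technical arrays per batch and 18 arrays in all. All cultures of days 10 and 22 had been in the myelination medium, so the effect of the medium and that of time cannot be told apart. The comparisons ask which interval transcripts differed between stages of myelination.

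Long noncoding RNAs are transcripts of some length that are not translated into protein. Many are spliced and polyadenylated like mRNA, most are scarce, and many are found in few tissues or stages. Some have a known part in silencing or activating genes, in nuclear structure or in carrying small RNAs, and for most intervals of this kind no function is known. A probe for an interval reads the RNA of 1 strand at 1 place within it, so several probes of an interval need not read the same transcript.

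Every level is a log2 intensity minus the array's own 75th percentile, so that 0 is the signal of a bright probe. Slides and batch assignment bear on every result. The 18 arrays lay on 3 slides, of which 2 held arrays of all 3 days. The authors' value table places 12 of the 18 arrays in another batch of the same day than the array files do. Changes were therefore fitted with the batches of the array files and again with those of the value table, and a member is said to have risen or fallen only where the adjusted p of limma was under 0.05 both ways. All 10 sensory neuron and all 10 Schwann cell markers passed the detection rule. The summed signal of the 10 macrophage markers, on the linear scale, ran from 6.15 to 15.8 at day 0, from 19.4 to 53.3 at day 10 and from 48.1 to 247 at day 22, and all 10 were higher at day 22 than at day 0. That of the 6 markers of dividing cells ran from 35.3 to 46.2, from 12.6 to 19.4 and from 2.29 to 6.93, and all 6 were lower. All members of both lists passed the detection rule, and their part in the changes of the interval transcripts was not tested. From day 0 to day 22, 1 of 10 Schwann cell markers rose and 3 fell, 1 of 10 sensory neuron markers fell, and 1 rose and 1 fell in each of the lists of 4 satellite glia, 6 fibroblast and 4 tested endothelial markers, and Tek, another endothelial marker, did not pass the detection rule. Of 3 tested melanocyte markers 2 rose. In RNA of whole cultures, fewer cells of a type and less RNA per cell cannot be told apart.

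Most interval transcripts gave a weak signal. Over all 18 arrays the median member lay at -3.11, against 0.24 for the 15000 RefSeq mRNA features that passed the same rule and -1.84 for the 323 RefSeq noncoding RNA features. At the bright end the 75th percentile was -1.80 for interval transcripts and 2.17 for mRNA. Above 0 lay 273 interval transcripts (10.2%) and 53.1% of mRNA features. Different probes bind with different strength, so these are differences in signal, not in the amount of RNA. Of the interval probes on the array, 33.7% passed the rule, against 72.3% of the mRNA probes and 49.9% of the noncoding RNA probes.

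**Figure D1:**
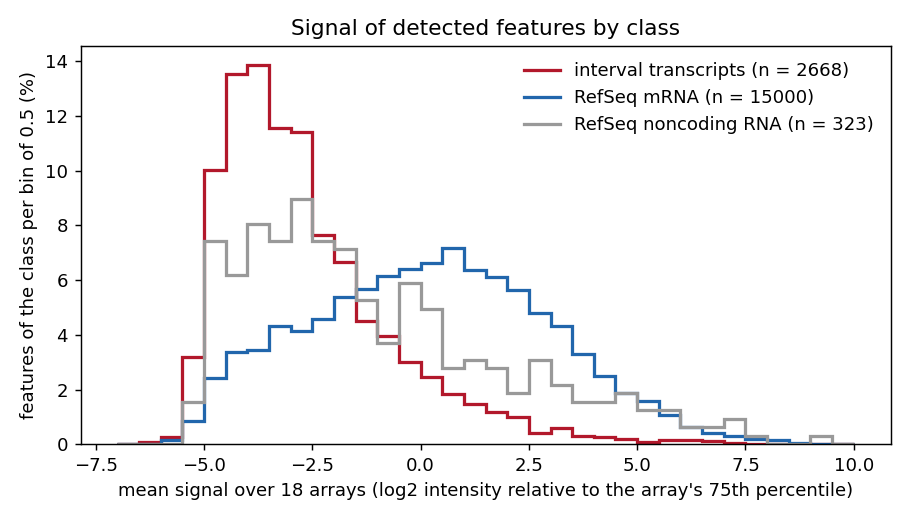
Share of detected features (%, vertical axis) by mean signal over 18 arrays (log2 intensity minus the array's 75th percentile, bins of 0.5) for interval transcripts, RefSeq mRNA and RefSeq noncoding RNA. Interval transcripts crowd toward the dim end, with a median of -3.11, while mRNA features spread around 0.24.

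The share of interval probes well above background had its highest median at day 0. On the 6 arrays of day 0, 36.8 to 43.3% of interval probes were well above background (median 40.0%), on those of day 10 32.3 to 39.4% (median 36.0%) and on those of day 22 31.8 to 40.8% (median 35.5%). The ranges of the days overlap. For mRNA probes the medians were 74.5, 73.6 and 73.8%. The median signal of the negative control spots ran from 2.78 to 4.37, from 3.12 to 4.12 and from 2.90 to 4.77 intensity units on the 3 days.

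All passing probes of 1742 members (65.3%) were well above background on all 18 arrays, against 90.6% of mRNA features. Of the other members, 415 (15.6%) met the rule with every passing probe at day 0 only, 69 at day 10 only and 85 at day 22 only. A further 171 met it at days 0 and 10, 86 at days 0 and 22 and 77 at days 10 and 22, and 23 met it on no day with every probe. Of mRNA features 1.93% met it at day 0 only and 1.38% at day 22 only. Since detection chose the members, these shares describe the choice and were not tested. At the edge of the rule, the 682 interval probes flagged on 6 of 6 arrays of a single day had a median of -4.47 on their best day (range -5.37 to -2.27). The 562 probes flagged on at most 5 of 6 arrays of a day, just outside it, had a median of -4.84 (range -5.56 to -3.53).

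**Figure D2:**
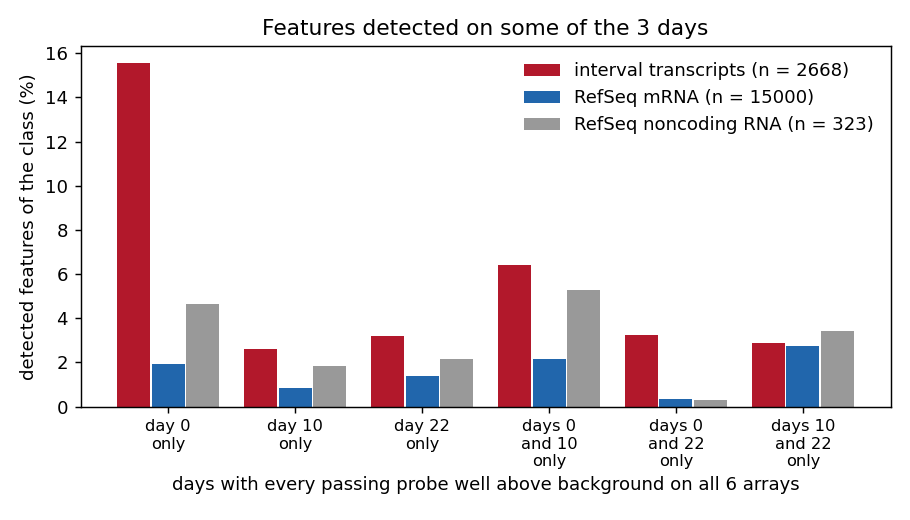
Share of detected features (%, vertical axis) whose passing probes were all well above background on the 6 arrays of the named days only, for interval transcripts, RefSeq mRNA and RefSeq noncoding RNA. The day 0 bar of the interval transcripts, 15.6%, stands above every other bar.

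The intervals of the members had a median length of 11988.5 bases (10676 for all on the array), 1337 lay on the forward strand, 1329 on the reverse strand and 2 had no strand. Longer intervals were members more often: 48.1% of those up to 2 kb, 58.1% from 2 to 10 kb, 61.4% from 10 to 30 kb and 64.6% of those over 30 kb. The X chromosome held 3.34% of members and 3.86% of the intervals on the array. Members were not all separate places: 992 overlapped another member on the same strand, and the 2668 fell into 2098 separate loci.

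In 1297 members a single probe carried the value. For 264 of them it was the only probe on the array, and for 1033 the other probes of the interval did not pass. Of the 2404 members with several probes on the array, 530 had every probe passing. Where 3 or more probes passed on all arrays (445 intervals), the median distance between the brightest and the dimmest probe was 1.86 on the log2 scale, while the change from day 0 to day 22 had the same sign in all probes of 313.

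The array carried probes for both strands of 1067 intervals. Both strands were members in 482, a single strand in 431 and neither in 154. Where both were, the median difference in signal between strands was 1.61 on the log2 scale. In the interval of A_30_P01020476, 109626 bases long on the X chromosome, the forward strand lay at 6.57 and the reverse strand, read by A_30_P01025131, at -3.28. The forward arrays ran from 6.09 to 6.92 at day 0 (median 6.46), from 6.44 to 6.83 at day 10 (median 6.64) and from 6.20 to 6.86 at day 22 (median 6.62), and no array of the reverse strand on any day exceeded -2.51. A_30_P01025092 (reverse, 5.68) and A_30_P01018653 (forward, -3.32) shared an interval of 34726 bases. A_30_P01026458 (reverse, 7.38) and A_30_P01025488 (forward, -1.23) shared one of 25976 bases. In these 3 pairs, those with the widest difference of all 482, the passing probes of 1 strand were bright and those of the other dim on every day. The bright values came from 1 of 4 probes for A_30_P01020476, 1 of 5 for A_30_P01025092 and the only probe for A_30_P01026458. The other probes of the first 2 did not pass, so a bright probe need not stand for its whole strand. In the 3 pairs with the narrowest difference both strands were dim: A_30_P01024664 and A_30_P01024934 lay at -1.83 and -1.82, A_30_P01020201 and A_30_P01022869 at -5.00 and -5.00, and A_30_P01018352 and A_30_P01017660 at -3.43 and -3.42. The strands of an interval are read by different probes, so these too are differences in signal.

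**Figure D3:**
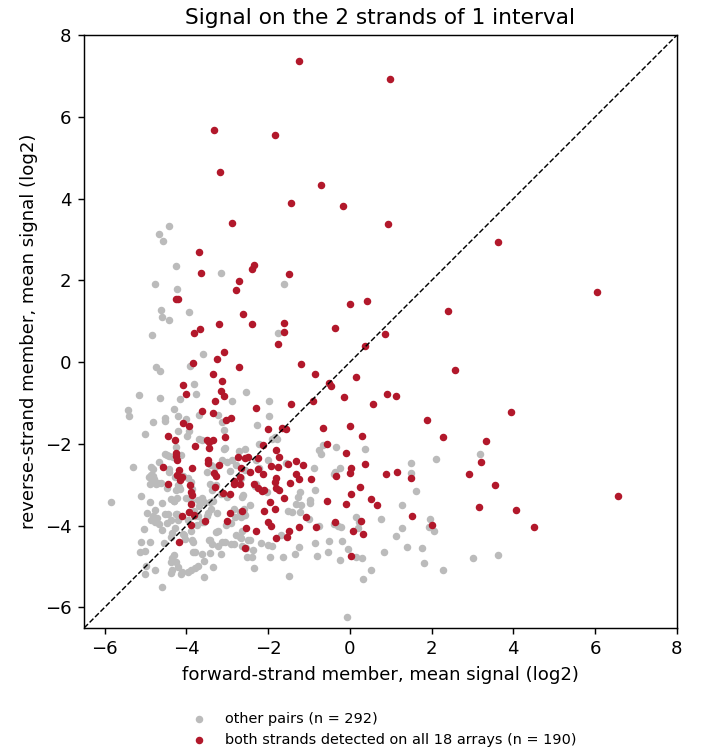
Mean signal over 18 arrays (log2 intensity minus the array's 75th percentile) of the forward-strand member (horizontal axis) and the reverse-strand member (vertical axis) of the 482 intervals with both. Points far from the dashed line of equal signal are intervals with a bright and a dim strand; the 190 pairs detected on both strands on all 18 arrays are in red.

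From day 0 to day 22, more interval transcripts fell than rose, and both shares were below those of mRNA. Counts of changes are given for the 1742 members well above background on all 18 arrays, since a member that passed through 1 day only had to differ. Of these, 90 rose (5.17%, against 11.6% of all features detected on all arrays) and 218 fell (12.5%, against 18.9%). Among mRNA features detected on all arrays 14.3% rose and 20.1% fell. Of 266 RefSeq noncoding RNA features so detected 7.9% rose and 20.7% fell. For the 4615 features outside these 3 classes the shares were 6.63 and 17.4%, so falls outnumbered rises in every class. With the array-file batches alone, 143 members were higher (8.21%, against 16.2% of all such features) and 345 lower (19.8%, against 27.7%), at n = 3 batches per day. The median change of the 1742 was -0.093 on the log2 scale, against -0.076 for mRNA and -0.084 for all features detected on all arrays. The order of the 2 classes depended on the processing. With background correction by normexp the medians were -0.029 for the 1742 and -0.056 for mRNA. They were -0.025 and -0.074 with no filter on dim probes, and -0.031 and -0.066 without batch 3 of day 0. Quantile normalization kept the first order (-0.081 and -0.065). With the array-file batches, 26 of the 1742 were higher by at least 2-fold and 39 lower, against 5.49% and 4.36% of all features detected on all arrays, where higher calls of this size outnumbered lower ones.

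The split between directions depended on the scale. With the array-file batches, 29.3% of the called members were higher. With the median of the mRNA probes as the scale of each array, 98 were higher and 480 lower (17.0% higher), and the median change of all features was then -0.18. Within slide 1, whose 2 arrays of day 22 came from 1 batch, 30 were higher and 47 lower, with a median change of -0.16. That lone batch is assumed in the fit to vary like the other days. Within slide 2, 32 were higher and 60 lower, with a median change of -0.062.

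The shares were also set side by side within bands of signal. Among features with a mean level from -2 to 0, 6.998% of 443 interval transcripts rose and 10.6% fell, against 15.4 and 22.2% of 3426 mRNA features. Above 2, 2.30% of 87 interval transcripts rose and 17.2% fell, against 13.0 and 18.3% of 4018 mRNA features. From -4 to -3, 4.97% of 443 rose and 12.6% fell, against 12.8 and 14.3% of 838. From -2 to 0 the median standard error was 0.11 in both classes. Below -4 the shares that rose were 3.25 and 3.27%.

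**Figure D4:**
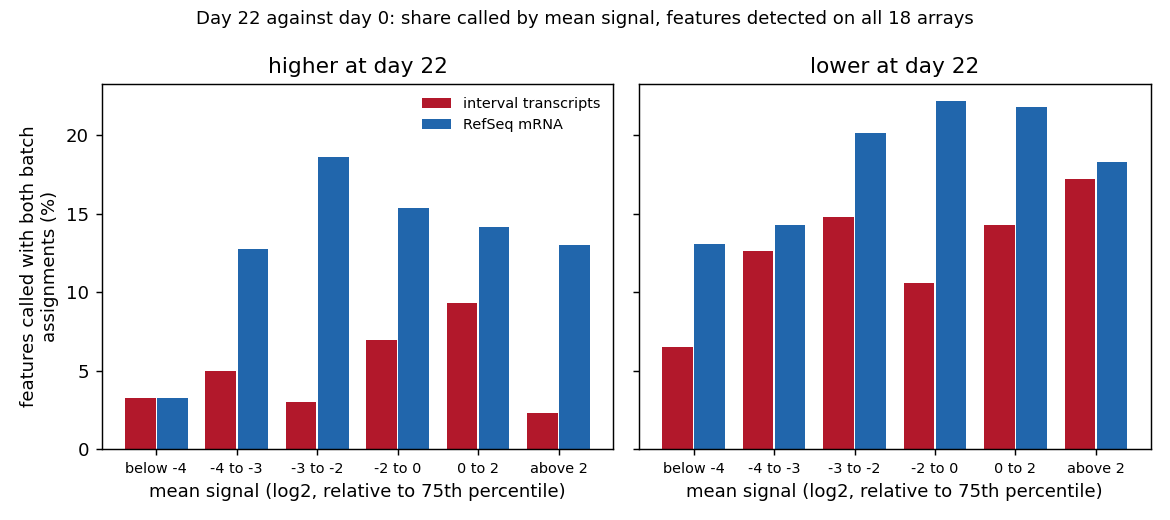
Share of features (%, vertical axes) that were higher (left) or lower (right) at day 22 than at day 0 with both batch assignments, by mean signal (horizontal axes), for interval transcripts and RefSeq mRNA detected on all 18 arrays. In the band from -2 to 0 the bars are 6.998 against 15.4% (higher) and 10.6 against 22.2% (lower).

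The changes named by size here and for the other comparisons are the largest among the 1742 members detected on all 18 arrays; members detected on part of the arrays are given further on by bounds. Among the 1742 the largest fall was that of A_30_P01033054, the only probe of an interval of 5589 bases on the forward strand. Its arrays ran from -0.41 to 0.14 at day 0 (median -0.064), from -1.69 to -1.20 at day 10 (median -1.40) and from -4.51 to -2.47 at day 22 (median -3.32). The arrays of the 3 days did not overlap, and each day lay below the one before. The change from day 0 to day 22 was -3.38 ± 0.28 (adjusted p = 6.36e-05, and 0.000751 with the value-table batches).

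A_30_P01019819, with 3 of 3 probes in an interval of 1024 bases on the reverse strand, ran from 0.34 to 0.77 at day 0 (median 0.49), from -1.40 to -0.65 at day 10 (median -0.93) and from -3.54 to -2.06 at day 22 (median -2.41). Its arrays were again apart on all 3 days, and the change was -3.03 ± 0.22 (adjusted p = 3.59e-05 and 8.77e-05), here and below with the adjusted p of the array-file and then of the value-table batches. A_30_P01017632, a single probe in 25061 bases, ran from 0.57 to 1.002 at day 0 (median 0.73), from -0.68 to -0.19 at day 10 (median -0.30) and from -2.59 to -1.33 at day 22 (median -1.74). It too stepped down without overlap, with a change of -2.53 ± 0.18 (adjusted p = 3.10e-05 and 0.000259).

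A_30_P01021179, 1 of 3 probes in 1122 bases, fell by 2.34 ± 0.20 (adjusted p = 6.88e-05 and 0.000622) on the log2 scale, with arrays at -1.67 to -1.03, median -1.44, at day 0 and -4.83 to -3.03, median -3.62, at day 22. A_30_P01030626 changed by -2.07 ± 0.15 (adjusted p = 3.44e-05 and 0.000119), with day 0 arrays at -2.58 to -2.03, median -2.21, day 10 arrays at -3.50 to -3.05, median -3.19, and day 22 arrays at -4.66 to -3.83, median -4.26. Neither had a day 22 array within the range of day 0. In A_30_P01023097 the day 0 arrays were spread from -1.04 to 1.88 (median 0.64), and those of days 10 and 22 overlapped, with medians of -1.72 and -1.33. Its change from day 0 to day 22 was -2.20 ± 0.35 (adjusted p = 0.00132 and 0.00527), and 1 array of day 0 lay within the range of day 22.

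With background correction by normexp in place of that of the scanner software, the changes of A_30_P01033054, A_30_P01019819, A_30_P01021179 and A_30_P01030626 were smaller, at -2.35, -2.43, -1.45 and -1.07, and all 4 passed the threshold.

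Among rises of the 1742 the largest was that of A_30_P01023737, the only probe of a reverse-strand interval of 3104 bases. Its arrays ran from 1.12 to 2.39 at day 0 (median 1.42), from 2.65 to 5.03 at day 10 (median 2.99) and from 2.99 to 5.99 at day 22 (median 4.68). Days 10 and 22 overlapped each other and lay above every array of day 0, and the change was 3.02 ± 0.51 (adjusted p = 0.00188 and 0.0117). A_30_P01017482, with 2 of 2 probes in 5701 bases, ran from -3.71 to -1.70 (median -2.37) at day 0 and from -1.94 to 1.39 (median -0.51) at day 22. At day 10 it ran from -2.29 to -0.87 (median -1.27). The ranges of days 0 and 22 overlapped by array. The 3 batch means of days 0 and 22 did not, as the rule for naming required. The change was 2.21 ± 0.38 (adjusted p = 0.00201 and 0.0345).

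In the other 4 of the 6 largest rises, as in A_30_P01017482, the day 10 median lay nearer to that of day 22 than to that of day 0. A_30_P01027846, the only probe in 5626 bases, ran from -3.82 to -2.48 at day 0 (median -2.90), from -1.37 to -0.61 at day 10 (median -0.94) and from -2.59 to -0.16 at day 22 (median -0.50), and rose by 2.13 ± 0.36 (adjusted p = 0.00176 and 0.00634). A_30_P01023755 (1 of 4 probes) ran from -3.999 to -2.03 at day 0 (median -2.64), from -2.001 to -0.88 at day 10 (median -1.28) and from -2.06 to -0.40 at day 22 (median -0.85), and rose by 1.79 ± 0.44 (adjusted p = 0.0108 and 0.00102). A_30_P01020620 (1 of 3 probes) ran from -2.74 to -1.31 at day 0 (median -1.59), from -0.38 to 0.058 at day 10 (median -0.074) and from -0.66 to 0.52 at day 22 (median 0.063), and rose by 1.77 ± 0.23 (adjusted p = 0.000579 and 0.00124). A_30_P01030751 (1 of 3 probes) ran from -2.16 to -0.58 at day 0 (median -0.98), from -0.15 to 0.49 at day 10 (median 0.28) and from -0.31 to 1.12 at day 22 (median 0.68), and rose by 1.75 ± 0.34 (adjusted p = 0.00350 and 0.00158). Of these 4, A_30_P01020620 and A_30_P01030751 had every day 22 array above every day 0 array, while in A_30_P01027846 and A_30_P01023755 the lowest array of day 22 lay within the range of day 0.

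**Figure D5:**
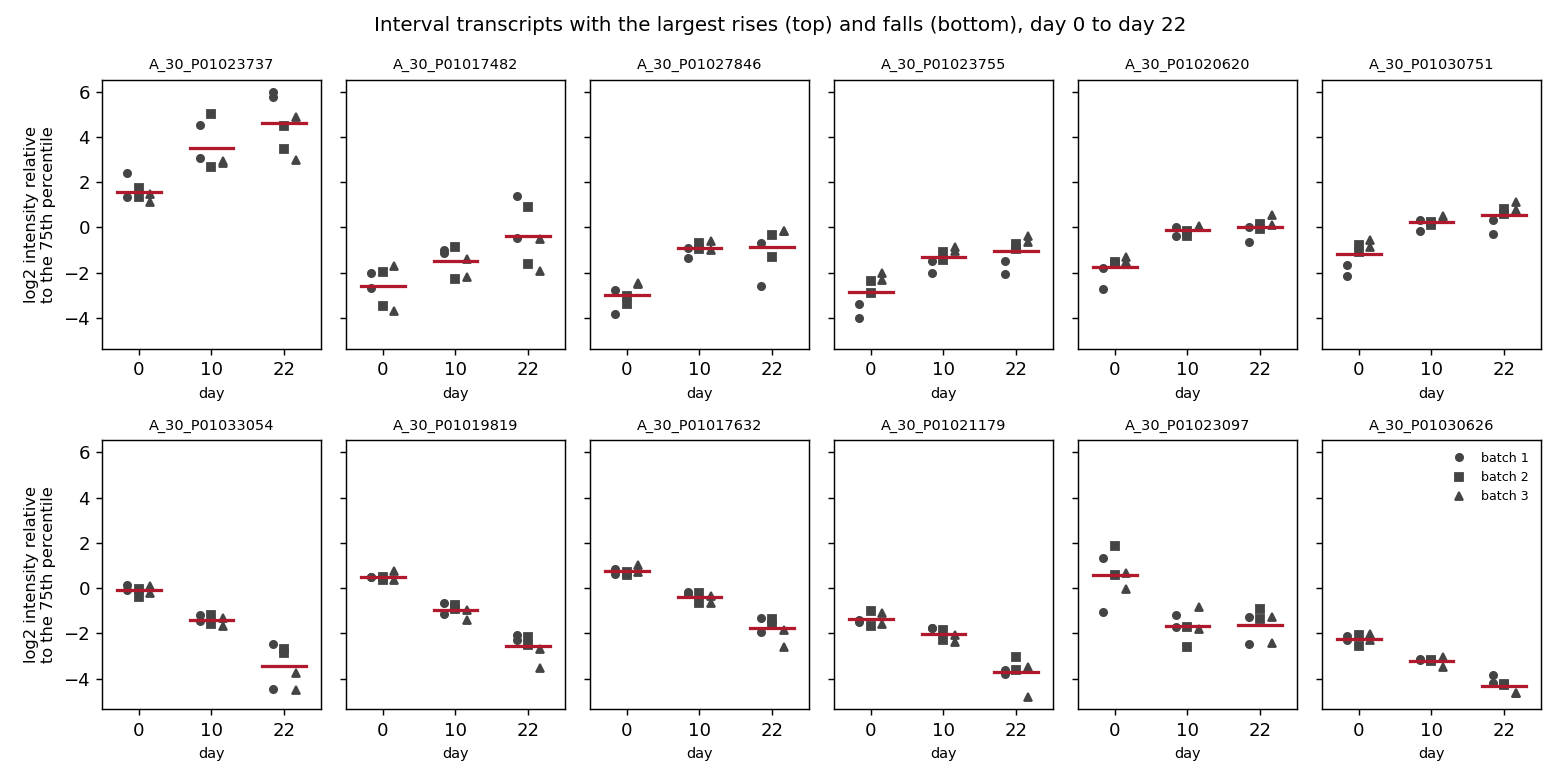
Signal of each array (log2 intensity minus the array's 75th percentile, vertical axes) by day (horizontal axes) for the 6 largest rises (top) and 6 largest falls (bottom) from day 0 to day 22 among members detected on all 18 arrays; symbols are the 3 batches of the array files, with 2 arrays each, and red bars are means of 6 arrays. A_30_P01033054, A_30_P01019819 and A_30_P01017632 step down from day to day without overlap, while A_30_P01020620 has medians of -0.074 and 0.063 at days 10 and 22.

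Of the 90 members that rose over the whole course, the median change was 0.40 in the first 10 days and 0.22 thereafter. For the 218 that fell these medians were -0.37 and -0.19. The steps share the day 10 arrays and were part of the change that chose these members, so they are given as a description.

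From day 0 to day 10, 37 of the 1742 members rose (2.12%, against 5.25% of all features detected on all arrays) and 84 fell (4.82%, against 7.75%). With the array-file batches alone 75 were higher (4.31%, against 10.7%) and 204 lower (11.7%, against 18.1%), and with the value-table batches alone 40 and 86. Of mRNA features detected on all arrays 6.56% rose and 7.97% fell, of RefSeq noncoding RNA features 3.76 and 9.02%, and of features outside these classes 2.64 and 8.15%. The median change was -0.076 for interval transcripts and -0.045 for mRNA. This order too depended on the processing: the medians were -0.016 and -0.032 with normexp, and -0.015 and -0.037 without batch 3 of day 0. With quantile normalization they were -0.038 and -0.022. Leaving out any of the 3 batches of day 10 left 45, 45 and 48 members higher with the array-file batches. With the median of the mRNA probes as the scale, 56 were higher and 289 lower (16.2% of calls higher, against 26.9% in the count above), and with the values and batches that the authors tabulated, 56 and 75 (42.8%).

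Among the marker lists, the summed signal of the 4 melanocyte markers ran from 3.05 to 4.71 at day 0, from 52.8 to 83.8 at day 10 and from 11.5 to 82.1 at day 22. This linear sum mostly follows Tyrp1, whose log2 median at day 10 was 5.94, against 1.03 for Mitf and -2.51 for Pmel. Pmel changed by -0.22 from day 0 to day 22. Of the 3 that passed the detection rule 2 rose by day 10, and Dct did not pass it. Of the Schwann cell markers 3 of 10 rose by day 10 and 1 fell, of the satellite glia markers 1 of 4 rose and 1 fell, of the macrophage markers 2 of 10 rose, and of the dividing-cell markers 4 of 6 fell. Their part in the changes of the interval transcripts was not tested.

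The 4 largest rises by day 10 came from 3 loci. A_30_P01018914 (2 of 5 probes, 11626 bases) ran from -2.99 to -1.94 at day 0 (median -2.43), from -0.33 to -0.075 at day 10 (median -0.29) and from -1.62 to -0.27 at day 22 (median -0.81). Every array of day 10 and of day 22 lay above every array of day 0, and the change to day 10 was 2.20 ± 0.23 (adjusted p = 0.000622 and 0.00426). A_30_P01020518, the only probe of an overlapping interval of 12040 bases on the same strand, moved alike: it ran from -2.68 to -1.98 at day 0 (median -2.35), from -0.54 to -0.33 at day 10 (median -0.40) and from -1.75 to -0.51 at day 22 (median -0.93) and changed by 1.95 ± 0.20 (adjusted p = 0.000563 and 0.00324). These 2 members are 1 locus and not independent.

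A_30_P01027846, named above, rose by 2.07 ± 0.36 (adjusted p = 0.00409 and 0.0178). A_30_P01019207, with 3 of 3 probes in 52238 bases, ran from -4.04 to -3.06 at day 0 (median -3.65), from -1.84 to -1.14 at day 10 (median -1.67) and from -3.94 to -1.15 at day 22 (median -1.44). It rose by 2.05 ± 0.30 (adjusted p = 0.00231 and 0.0371). At day 22 its arrays overlapped those of day 0, and the change from day 0 to day 22, 1.56 ± 0.30 (adjusted p = 0.00378 and 0.0505), passed with the array-file batches only.

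Among the falls by day 10, A_30_P01023097 (the only probe in 662 bases) and A_30_P01023457 (3 of 3 probes in 2198 bases) lay 20773 bases apart on the same strand. A_30_P01023097 ran from -1.04 to 1.88 at day 0 (median 0.64), from -2.62 to -0.86 at day 10 (median -1.72) and from -2.48 to -0.93 at day 22 (median -1.33), and fell by 2.23 ± 0.35 (adjusted p = 0.00282 and 0.0138). A_30_P01023457 ran from 1.37 to 3.91 at day 0 (median 3.02), from 0.46 to 1.76 at day 10 (median 0.88) and from 0.11 to 2.09 at day 22 (median 1.39), and changed by -1.91 ± 0.33 (adjusted p = 0.00416 and 0.0164). Both had a wider spread of arrays at day 0 than on the other days. In both, the lowest array of day 0 lay within the range of day 10. It was the first technical array of batch 1 in both. The second array of that batch lay at 1.33 in A_30_P01023097 and at 3.68 in A_30_P01023457. The 2 arrays of a batch were averaged before the fit, so the difference between them does not enter the standard error.

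A_30_P01023418 (1 of 5 probes, 14176 bases) had day 0 arrays at -3.75 to -1.31, median -2.34, and day 10 arrays at -4.84 to -2.88, median -4.39. It changed by -1.86 ± 0.28 (adjusted p = 0.00248 and 0.0365). A_30_P01027919 (1 of 3 probes, 607 bases) had day 0 arrays at -4.28 to -1.47, median -2.30, and day 10 arrays at -4.39 to -3.28, median -4.21. It changed by -1.67 ± 0.23 (adjusted p = 0.00167 and 0.04997), so that the value-table p was just under the threshold. In both members the arrays of the 2 days overlapped. The batch means did not, as the rule for naming required. The lowest array of day 0 was again the first technical array of batch 1, and the second array of that batch lay at -1.32 and -1.57. With normexp A_30_P01023418 and A_30_P01027919 changed by -1.02 and -0.90, and A_30_P01019207, among the rises, by 1.29, all past the threshold.

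From day 10 to day 22 few members changed: 2 rose (0.115%, against 0.406% of all features detected on all arrays) and 8 fell (0.459%, against 1.32%). With the array-file batches alone 25 were higher (1.44%, against 3.74%) and 30 lower (1.72%, against 5.15%), and with the value-table batches alone 2 and 8. This count varied with 1 batch left out, from 1 to 36 higher and from 11 to 61 lower. Such fits also rest on fewer batches, and a batch of day 0 enters this step only through the pooled spread. Whether particular batches set the count was not tested. Without batch 1, 2 or 3 of day 10, 4, 4 and 1 members were higher and 11, 14 and 12 lower. Without batch 2 of day 22, 3 were higher and 12 lower, without batch 3 of day 22 61 were lower, and without batch 1 of day 22 or batch 3 of day 0, 12 and 14 were higher. After quantile normalization 21 were higher and 55 lower (27.6% of calls higher, against 45.5%), and with the 75th percentile taken over probes detected on all arrays 23 and 44 (34.3%).

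All 6 markers of dividing cells fell in this step, and no macrophage marker passed with both batch assignments. Their part was not tested.

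The 4 largest falls of this step were those of A_30_P01033054, A_30_P01021179, A_30_P01019819 and A_30_P01017632, whose arrays are given above apart from A_30_P01021179 at day 10 (-2.40 to -1.77, median -1.96). From day 10 to day 22 they changed by -2.05 ± 0.28 (adjusted p = 0.00537 and 0.0459), by -1.70 ± 0.20 (adjusted p = 0.00316 and 0.0230), by -1.58 ± 0.22 (adjusted p = 0.00582 and 0.0132) and by -1.40 ± 0.18 (adjusted p = 0.00423 and 0.0269). No array of day 22 overlapped day 10 in any of the 4. With normexp A_30_P01033054 and A_30_P01021179 changed by -1.21 and -0.98, past the threshold. A_30_P01033054 missed the threshold in the fit that joins the value-table batches with the batch number as a block (adjusted p = 0.0542).

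The 2 rises were small. A_30_P01027518 (1 of 5 probes, 15276 bases) ran from -4.77 to -3.87 at day 0 (median -4.45), from -3.96 to -3.30 at day 10 (median -3.75) and from -3.15 to -2.59 at day 22 (median -2.92). It rose by 0.80 ± 0.12 (adjusted p = 0.00746 and 0.0424) from day 10 to day 22, and its day 22 arrays lay above all of day 10. With the value-table batches and the block it missed the threshold (adjusted p = 0.0638). A_30_P01027849 (1 of 3 probes, 6547 bases) ran from -4.23 to -3.53 at day 0 (median -3.67), from -4.63 to -4.20 at day 10 (median -4.30) and from -3.97 to -3.48 at day 22 (median -3.81). It first fell by 0.55 and then rose by 0.58 ± 0.12 (adjusted p = 0.0234 and 0.0304), so that days 0 and 22 overlapped, with a change of 0.030 between them. Its rise missed the threshold without any of the 3 batches of day 10 (adjusted p = 0.0741, 0.0562 and 0.0901) and without batch 2 of day 22 (0.0833), and with normexp it was 0.23 (adjusted p = 0.151).

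Members with day 10 apart from both other days were ranked by the smaller of the 2 steps. The highest peak at day 10 was that of A_30_P01024411 (2 of 3 probes, 2508 bases), which ran from -2.96 to -2.18 at day 0 (median -2.63), from -1.99 to -1.09 at day 10 (median -1.40) and from -2.71 to -1.86 at day 22 (median -2.13). It rose by 1.08 ± 0.20 (adjusted p = 0.00534 and 0.0115) to day 10, and the step to day 22, -0.78 ± 0.20 (adjusted p = 0.0455 and 0.0804), passed with the array-file batches only, and missed the threshold there in 8 of 9 fits with 1 batch left out (adjusted p = 0.0514 to 0.150) and with normexp (0.0647).

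A_30_P01023035 ran from -0.36 to 0.31 at day 0 (median 0.16), from 0.40 to 1.28 at day 10 (median 0.79) and from -0.67 to 0.72 at day 22 (median 0.29). Its steps were 0.73 ± 0.27 (adjusted p = 0.0723 and 0.0817) and -0.70 ± 0.27 (adjusted p = 0.139 and 0.185). The first of these passed with the batch number as a block (adjusted p = 0.0261, and 0.0274 with the value-table batches). A_30_P01031063 ran from -4.33 to -3.60 at day 0 (median -3.75), from -3.69 to -2.49 at day 10 (median -2.85) and from -4.34 to -2.94 at day 22 (median -3.51), with steps of 0.92 ± 0.26 (adjusted p = 0.0286 and 0.0676) and -0.69 ± 0.26 (adjusted p = 0.132 and 0.254). The first step of A_30_P01031063 passed with the block in both (adjusted p = 0.0248 and 0.0317), and with the array-file batches missed the threshold in 5 of 9 fits with 1 batch left out (0.0575 to 0.0913). In all 3 members the arrays of day 10 overlapped those of day 22, and in A_30_P01031063 also those of day 0.

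The deepest dip at day 10 was that of A_30_P01021373 (3 of 3 probes, 52919 bases), with steps of -0.79 ± 0.28 (adjusted p = 0.0674 and 0.113) and 0.94 ± 0.28 (adjusted p = 0.0751 and 0.158). A_30_P01024284 had steps of -0.72 ± 0.28 (adjusted p = 0.0916 and 0.0834) and 0.84 ± 0.28 (adjusted p = 0.0998 and 0.124), and A_30_P01019423 of -0.79 ± 0.16 (adjusted p = 0.00727 and 0.226) and 0.71 ± 0.16 (adjusted p = 0.0300 and 0.411). No step of the first pair passed, and those of A_30_P01019423 passed with the array-file batches only, the second missing the threshold there with the batch as a block (adjusted p = 0.0518) and in 5 of 9 fits with 1 batch left out (0.0537 to 0.0998). A_30_P01021373 and A_30_P01019423 overlap on 1 strand and are 1 locus. At day 0 their arrays ran from -4.22 to -1.69 and from -2.47 to 0.32, and overlapped day 10 in both. The lowest and the highest of these were in both the 2 technical arrays of batch 1.

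Some members were detected throughout day 0 and nowhere at day 22, or the reverse. For these the fold change of the processed signal is given as a bound, since the dim day was not flagged above background. Of all members, 7 were well above background on all arrays of day 0 and none of day 22, and 3 the other way. Since detection chose them, the bounds are a description. A_30_P01017503 (3 of 3 probes, 1902 bases) was at least 7.12-fold higher at day 0 by the processed signal. Its day 0 arrays lay at -4.46 to -3.48, median -3.81, and its day 22 arrays at -7.09 to -6.46, median -6.95. A_30_P01018054 was at least 4.15-fold higher at day 0, A_30_P01025891 at least 3.73-fold and A_30_P01027788 at least 2.90-fold. At day 10 each probe of A_30_P01017503 was well above background on at least 3 arrays. In each of the other 3 members at least 1 passing probe was so on no array of day 10. In the other direction, A_30_P01020675 (2 of 3 probes, 510 bases) was at least 5.15-fold higher at day 22, with day 0 arrays at -7.75 to -6.22, median -7.16, and day 22 arrays at -4.41 to -3.34, median -3.94. A_30_P01021044 was at least 4.83-fold and A_30_P01027981 at least 2.70-fold higher at day 22. The processed signals of these 7 members are near background, and with normexp, which adds an offset, their changes from day 0 to day 22 were much smaller. They were -0.59 for A_30_P01017503, -0.40 for A_30_P01018054, -0.51 for A_30_P01025891 and -0.29 for A_30_P01027788, the last no longer past the threshold (adjusted p = 0.170). The rises were 0.73 for A_30_P01020675, 0.82 for A_30_P01021044 and 0.37 for A_30_P01027981. The bound sets each dim array to the higher of its own value and the lowest signal flagged above background on that array. In A_30_P01017503 this gave a day 22 mean of -6.70, close to the measured -6.86. Probes just outside the detection rule had a median of -4.84 on their best day. All 7 changes with normexp were smaller than the bounds, so the folds are not lower limits for the RNA.

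Of the 5 members with the highest signal, 1 changed from day 0 to day 22. A_30_P01026458 (7.38), A_30_P01018662 (6.98), A_30_P01030669 (6.93), A_30_P01020476 (6.57) and A_30_P01032942 (6.49) lay within the brightest 5% of mRNA features, whose 95th percentile was 4.81. The values of A_30_P01020476 and A_30_P01032942 came from 1 of 4 and 1 of 2 probes, the others of the interval not passing. A_30_P01026458 ran from 7.39 to 7.62 at day 0 (median 7.50), from 7.19 to 7.40 at day 10 (median 7.28) and from 7.24 to 7.53 at day 22 (median 7.34), and its change from day 0 to day 22 was -0.15 ± 0.088 (adjusted p = 0.208 and 0.242). A_30_P01018662, with 3 of 3 probes in 752 bases, fell by 0.31 ± 0.079 (adjusted p = 0.0131 and 0.0287), with arrays from 6.99 to 7.25 at day 0 and 6.73 to 7.002 at day 22. The ranges overlapped at the edge, and the fall missed the threshold without batch 2 of day 22 (adjusted p = 0.0531). The changes of A_30_P01030669, A_30_P01020476 and A_30_P01032942 were 0.17 ± 0.075 (adjusted p = 0.0956 and 0.243), 0.12 ± 0.17 (adjusted p = 0.617 and 0.601) and 0.080 ± 0.17 (adjusted p = 0.734 and 0.740).

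Of the 445 intervals with 3 or more passing probes, 313 had 1 sign of change in all probes, as given above. Of the 113 of them that rose or fell from day 0 to day 22 it was 105, a share that the call itself favours, since it was made on the mean of the probes. In A_30_P01025234 the 3 probes changed by 0.36, 0.36 and 0.36, at signals of 4.77, 3.91 and 3.18, and the mean of 0.36 passed with the array-file batches (adjusted p = 0.0335) but not the value-table batches (0.0596, and 0.0483 with the block). With 1 batch left out it missed the threshold in 5 of 9 fits (adjusted p = 0.0526 to 0.0822). In A_30_P01019638 they changed by -0.19, -0.20 and -0.19, and the mean missed the threshold (adjusted p = 0.0716). In A_30_P01025860, an interval of 164222 bases with 3 of 8 probes passing, 1 probe changed by 2.36 and the others by -0.14 and -0.37. The mean change over the 3 probes was 0.61 ± 0.12 (adjusted p = 0.00332 and 0.00775), and that over both strands of the interval was -0.54 (adjusted p = 0.00417 with the array-file batches). In A_30_P01019178 the probes changed by 1.14, 1.07 and 2.84, and the mean change was 1.68 ± 0.43 (adjusted p = 0.0130 and 0.0239). Its size depends in part on 1 array of day 22, batch 2, at 0.95, where the nearest other array of that day lay at -2.57. The medians of days 0 and 22 were -3.84 and -2.63. Whether that array also set the third probe apart was not tested.

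Neighbouring members were compared too. Among members detected on all arrays, 365 pairs lay within 50 kb of each other without overlap, on either strand, a distance chosen after the values were seen. The change from day 0 to day 22 had the same sign in 224 pairs (61.4%). Of all 1742 members the change was positive in 638 and negative in 1104. Pairs of unrelated members would thus also share a sign more often than not. Both members of a pair passed the test in 18, in the same direction in 15, where most calls over all members were falls. The 365 pairs were formed by 423 members, so pairs share members and are not independent. Several of the 15 were pairs among the 4 members named next. A group of 4 of these members, also singled out after their values were seen, lay close together on both strands, with gaps of 147 to 2109 bases between the pairs counted: A_30_P01018620, A_30_P01020514, A_30_P01020015 and A_30_P01025659 changed by -0.96, -0.94, -0.84 and -1.07. In contrast, A_30_P01020307 and A_30_P01024258, 1945 bases apart on the same strand, changed by 1.11 and -0.52. Of the 190 intervals with both strands detected on all arrays, both strands changed in the same direction in 6 and in opposite directions in 0, a single strand changed in 42 and neither in 142. Of all 1742 members 5.17% rose and 12.5% fell, so few pairs could change on both strands. Whether the strands of an interval move together was not tested. Counted by separate loci rather than intervals, 83 of 1492 held a member that rose and 199 one that fell. Of all features detected on all arrays 11.6% rose and 18.9% fell.

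Length, strand and number of probes are given for the members that rose or fell, as a description. The 90 that rose had a median length of 11544.5 bases, with 52 on the forward and 38 on the reverse strand. The 218 that fell had a median of 9411 bases, with 94 forward and 124 reverse. The 1434 others had a median of 12245 bases, with 753 forward and 680 reverse. A single probe carried 48.9% of those that rose, 47.3% of those that fell and 57.0% of the others.

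Long noncoding RNAs with a gene symbol give a point of reference on the same arrays. Of 40 listed, 23 matched a probe and 18 passed the detection rule, with a median level of 0.19. From day 0 to day 22, 2 rose and 3 fell. Neat1, the scaffold of nuclear paraspeckles, had medians of 4.04, 5.12 and 5.63 on the 3 days and rose by 1.73 ± 0.20 (adjusted p = 0.000322 and 0.0131). Snhg3, a host gene of small nucleolar RNAs, rose by 0.53 ± 0.073 (adjusted p = 0.000701 and 0.0349), and missed the threshold with the value-table batches and the block (0.0578). Snhg7, another such host gene, fell by 0.71 ± 0.13 on the log2 scale (adjusted p = 0.00296 and 0.0238). Tug1 and Snhg6 fell by 0.30 and 0.32. Kcnq1ot1, which silences neighbouring imprinted genes, changed by -0.86 ± 0.20, past the threshold with the array-file batches only (adjusted p = 0.00947 and 0.0940). Malat1 (-0.30 ± 0.14), a nuclear RNA, and Meg3 (0.19 ± 0.18), an imprinted one, passed neither way (adjusted p from 0.117 to 0.599). Xist, Dlx6os1, Pantr1, Jpx and Dnm3os did not pass the detection rule.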

How the data were processed

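Total RNA of 9 culture batches (3 per day) was amplified from 100 ng and hybridised to 18 one-colour Cy3 arrays, 2 per batch. The deposited array files hold spot intensities and flags from Agilent Feature Extraction (10.7.1.1 per the file headers, 10.7.1 per the submitters' processing notes), and the other columns used, detection and outlier flags and probe names, come from the same deposited files. Per the file headers, the design uses build mm9. The authors' value table holds linear, quantile-normalized intensities; its scale was read from its values, each column having a median of 33.68. Of its 18 columns 12 matched an array file of another batch of the same day (Spearman correlation at least 0.9998 with the best file, at most 0.9745 with any other), and why is not known.

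From the files, log2 of the background-corrected, processed intensity minus the log2 75th percentile of the 59305 non-control spots of the array (584.1 to 746.7 intensity units) was computed. Outlier spots (93 to 181 per array) were left out, and 9 of 98226 spots of passing interval probes were filled from the other array of the batch, none in a named member. Passing probes of one interval and strand were averaged, then the 2 arrays of a batch. Days were compared with limma 3.58.1 (R 4.3.3) on the 9 batch means over 23369 features, with Benjamini-Hochberg adjustment and a threshold of 0.05. Arrays give no counts, so the number of arrays limits the precision.

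Per the series' design text, batches 1 to 3 came from separate collections and pools of embryos. The same batch numbers stand at each day. The number was taken to pair the samples only in the alternative fits with the batch number as a block. The main fits had day as their only factor and were not paired. Deviations of same-numbered batches correlated from -0.14 to 0.37 over features (above 0.1 in 6 of 9 pairs) with the array-file batches and from -0.086 to 0.46 (8 of 9) with those of the value table. The fit was tested on simulated data. The members, the marker and noncoding RNA lists and the naming rule were chosen with earlier results of these data known. Named are, among members detected on all 18 arrays, the largest changes per comparison past the threshold with both batch assignments and with no overlap of batch values, the highest signals, the extremes at day 10, and, among all members, the largest bounds, and the extremes of probe and strand agreement; other names are said to have been chosen after the values were seen. Alternatives covered batches, block, background correction, scaling, detection filter, probe summary, technical arrays, slides and single batches left out. Background correction by normexp (offset 50) used the median signal in place of the mean. Gene annotation of the intervals and probe sequences were not used here.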

Additional observations from a re-analysis of the deposited data

Results flagged for a closer look

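In 52 named members, each day's 6 arrays were checked for an array set apart from the other 5, and 8 of 156 groups had one, where chance gives about 1 in 20. In A_30_P01027919 an array of day 10, batch 3, lay at -3.281, with the nearest other array at -4.13. In A_30_P01027849 an array of day 10, batch 3, lay at -4.626 (nearest -4.34). In A_30_P01019819 an array of day 0, batch 3, lay at 0.7728 (nearest 0.49). In A_30_P01020620 an array of day 0, batch 1, lay at -2.739 (nearest -1.78). In A_30_P01024284 an array of day 0, batch 1, lay at -4.568 (nearest -3.12), and an array of day 22, batch 1, at -2.33 (nearest -3.05). In A_30_P01027981 an array of day 10, batch 1, lay at -6.907 (nearest -6.07). In A_30_P01019178 an array of day 22, batch 2, lay at 0.9488 (nearest -2.57), the widest gap of the 8.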

How the results depend on the processing

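With the array-file batches, the members detected on all arrays that were higher and lower numbered 75 and 204 (day 0 to 10), 25 and 30 (day 10 to 22) and 143 and 345 (day 0 to 22). Of 162 alternative counts 61 differed from these by more than 1.5 times, and the cause was not tested beyond what each alternative leaves out. In the order higher, lower, value-table batches gave 40 and 86, 2 and 8, and 104 and 236. With them and the batch number as a block (replicate block) the counts were 51 and 110, 4 and 8, and 115 and 248. The block with the array-file batches gave 94 and 221, 21 and 38, and 163 and 376. Normexp lowered the falls by day 10 to 134, quantile normalization raised the late falls to 55, and comparing only 2 days left 12 late rises. Values and batches of the value table together gave 75 falls by day 10, 1 rise and 8 falls late, and 219 falls over the course. With no filter on dim probes there were 42 rises by day 10, 1 and 10 late, and 80 and 215 over the course. First technical arrays alone gave 10 and 12, 0 and 2, and 53 and 104, and second ones 31 and 115, 1 and 7, and 80 and 205. Slide 1, where day 22 is 1 batch assumed to vary like the other days, gave 10 and 11, 0 and 0, and 30 and 47, and slide 2 gave 7 and 13, 0 and 0, and 32 and 60. Slide as a block gave 153 rises by day 10, 73 and 164 late, and 525 falls over the course. Leaving out 1 batch gave 45 to 93 and 140 to 224, 1 to 36 and 11 to 61, and 107 to 152 and 263 to 355.

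The share of interval transcripts called higher from day 0 to day 22 was below that of mRNA in 28 of 28 settings, and the share called lower in 28 of 28. From day 0 to day 10 these were 28 and 27 of 28, the exception being slide 2 (0.746% lower against 0.331%), and from day 10 to day 22 26 and 26, both classes having no call within either slide. Of 1451 alternative values for named members, 1283 kept direction and side of the threshold, 138 lost the threshold, 24 gained it and 6 reversed. From day 0 to day 22, A_30_P01032942 turned to -0.0090 with the median of mRNA probes as scale and ran from -0.049 to 0.27 with 1 batch left out, the lowest without batch 1 of day 0. A_30_P01020476 turned to -0.15 with both strands averaged, to -0.056 on slide 1, and ran from -0.0044 to 0.30 with 1 batch left out, again lowest without batch 1 of day 0. A_30_P01025860 turned to -0.54 with both strands averaged. With normexp 16 of 54 named changes moved by over 1.5 times, all 16 toward 0. The 1742 members counted had a median signal of -2.47, and probes just inside the detection rule one of -4.47.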
